A study of Mus musculus with 12 samples.

Results

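Late Ikaros regions are places where Ikaros was listed 8 h after lipopolysaccharide (LPS) and at no earlier time, and where RelA was listed at no time in wild-type cells. They were chosen from the Ikaros hotspots of wild-type bone-marrow-derived macrophages at 8 h of LPS. A hotspot is a region enriched for sequence tags that the authors called in a single library. A late region overlapped, by 1 bp or more, no hotspot of Ikaros at 0 or 3 h, of RelA at 0, 3 or 8 h, or of input DNA. The rule gave 6849 regions among the 13843 Ikaros hotspots of 8 h, and among 50940 hotspots in all 10 lists of the series. Because the rule reads presence or absence in these lists, the number of late regions and their lack of earlier Ikaros and of RelA describe the choice and are not findings.

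All cells were macrophages grown from the bone marrow of C57BL/6J mice. Wild-type cells after 8 and 3 h of LPS and at 0 h were immunoprecipitated with a goat polyclonal antibody against Ikaros and with a rabbit polyclonal antibody against RelA. The same RelA antibody was used at 0, 3 and 8 h on cells labelled as littermate controls, whose own genotype the labels do not give further. Input DNA came from untreated wild-type cells, and each of these 10 groups held 1 library. No Ikaros library of Ikaros-deficient cells was analysed here, so signal that does not depend on Ikaros cannot be told apart from binding. The file of the Ikaros library labelled 8 h carries both 3 h and 8 h in its name, and those of the Ikaros and RelA libraries labelled 0 h carry 3 h, so the times rest on the labels.

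Ikaros, encoded by Ikzf1, is a zinc finger protein best known for its role in the development of lymphocytes, where it acts on chromatin together with nucleosome remodelling complexes. RelA is a DNA-binding subunit of NF-kB, which is held in the cytoplasm of resting macrophages and enters the nucleus when LPS is sensed through Toll-like receptor 4. The classes below therefore separate Ikaros hotspots by whether this inducible factor was listed at the same place.

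Of the 13843 hotspots at 8 h, 47 overlapped input, which left 13796. Of these, 5883 overlapped an Ikaros hotspot of 0 or 3 h and 7913 did not. Among the 7913, 1064 overlapped wild-type RelA, with 924 on RelA of 3 h, 491 on RelA of 8 h and 1 on RelA of 0 h, since a hotspot can meet several lists. The other 6849 were the late regions, 49.6% of the list (95% exact Clopper-Pearson interval 48.8 to 50.5). Hotspots without wild-type RelA made up 86.6% of the 7913, against 74.8% of all 13796 and 59.1% of the 5883 with earlier Ikaros. These shares come from the same lists that the rule reads, and they were not tested. With the 8 h list held to its 7109 strongest hotspots, the length of the 3 h list, late regions numbered 2113 and made up 29.7% of it. The remaining classes were 3475 hotspots with earlier Ikaros and no RelA, and 2408 with both. Intervals here and below cover counting error over hotspots of 1 library, and neighbouring hotspots are not independent. With no replicate library, no p-value between classes or conditions is given.

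The numbers of reads behind the lists are unknown, and each list reached down to its own lowest z score, which is the authors' score of enrichment for a hotspot. The Ikaros lists ended at 9.75 (8 h), 9.82 (3 h) and 9.90 (0 h), so their cuts were alike. The wild-type RelA lists ended at 10.9 (8 h), 8.88 (3 h) and 9.93 (0 h). A late region may still have carried Ikaros or RelA below the cut of another list, which the lists cannot show.

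Late regions were mostly weak members of the 8 h list, but a minority reached the strength of places that Ikaros had held before. Their median z score was 12.4, with quartiles of 10.8 and 15.0. Hotspots with earlier Ikaros and no RelA had a median of 18.3 and quartiles of 13.9 and 24.6. Of the late regions, 676 (9.87%) reached or passed that median of 18.3. Late hotspots that carried RelA were also weak, with a median z score of 13.4, and hotspots with both earlier Ikaros and RelA were the strongest class, with a median of 21.6. The difference in median z score between late regions and hotspots with earlier Ikaros and no RelA was -5.98. The z score is the authors' own value and is used here only within the 8 h list.

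The other deposited measures gave the same order. The highest tag density of a hotspot is a deposited value on an unstated scale, and its median was 19.9 in late regions, 21.6 in late hotspots with RelA, 28.0 in hotspots with earlier Ikaros and no RelA and 32.6 in hotspots with both. The median width was 475 bp in late regions, against 534, 647 and 745 bp in the other classes, in the same sequence. A wider hotspot has more room for the overlap of 1 bp that sets the classes. Width is thus not separate from the rule, and its part in the order of the classes was not tested. Among late regions the z score followed width closely, with a Spearman rho of 0.90 across 6849 regions, and highest density less closely, with a rho of 0.66. These points share 1 library and its depth.

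**Figure D1:**
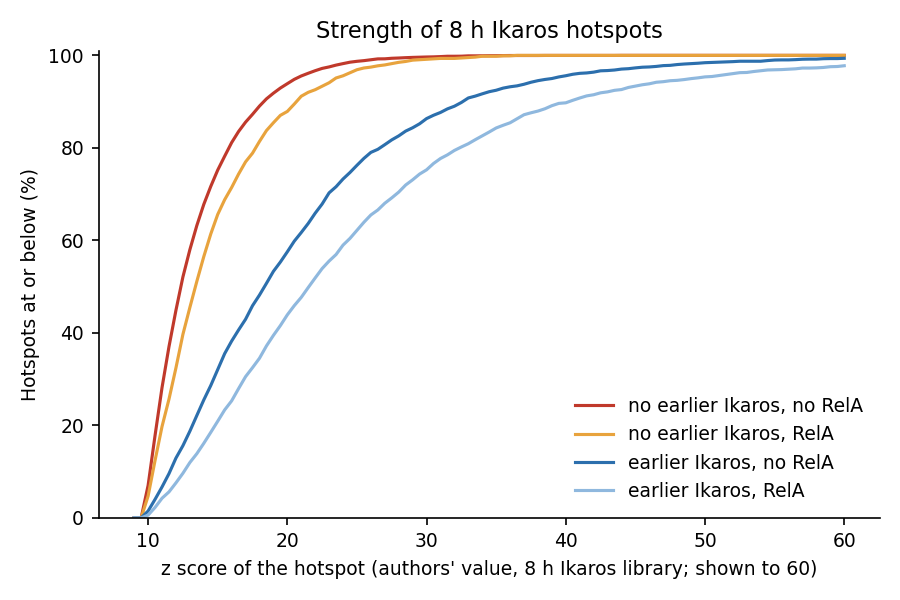
Percentage of 8 h Ikaros hotspots at or below each z score, for the 4 classes set by earlier Ikaros (0 or 3 h) and wild-type RelA (0, 3 or 8 h); the axis stops at 60. The curve of late regions without RelA lies leftmost with a median of 12.4, close to that of late hotspots with RelA (13.4), and the classes with earlier Ikaros lie to the right (18.3 and 21.6).

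Late regions thinned out steadily as strength rose. When the 13796 hotspots were split into 5 quintiles of z score, late regions made up 77.5% of the weakest quintile (z 9.75 to 11.2), 69.2% of the next, 55.1% of the middle one, 37.5% of the fourth and 8.99% of the strongest (z 21.7 to 204). Hotspots with earlier Ikaros and no RelA made up 9.89% of the weakest and 44.7% of the strongest. In numbers, 2139 late regions fell in the weakest quintile and 248 in the strongest. A z score of 20 or more was held by 419 late regions, 12.4% of all 3376 hotspots that strong, and a score of 30 or more by 24, 2.17% of 1104. Late regions of very low density were rare, with 117 (1.71%) under a highest density of 10.

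**Figure D2:**
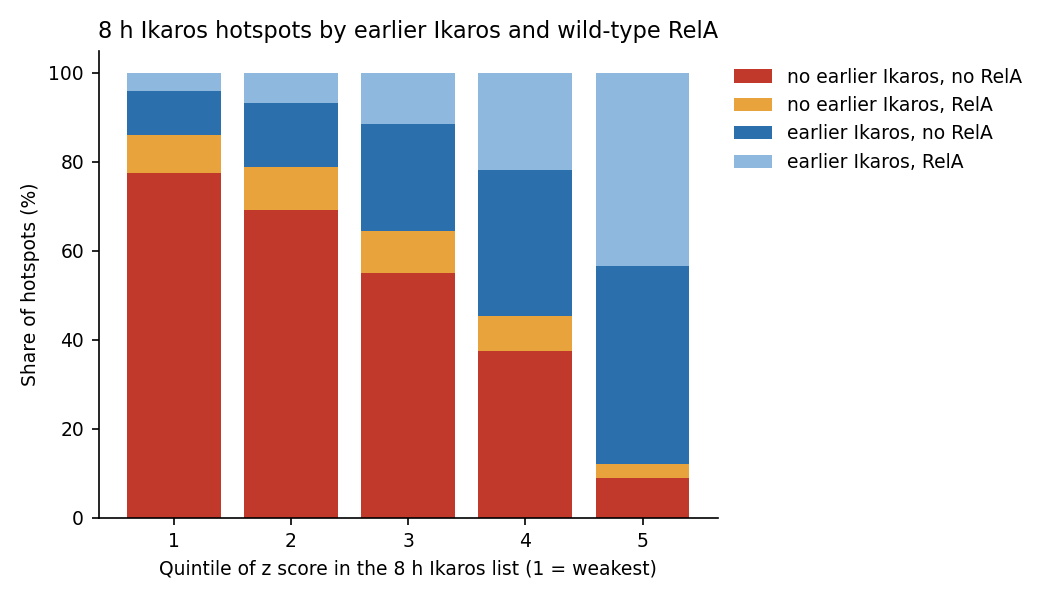
Share of the 4 classes in each quintile of z score of the 8 h Ikaros list, from weakest (1) to strongest (5); bars add to 100%. Late regions without RelA fill 77.5% of the weakest quintile and 8.99% of the strongest.

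The strongest late regions were wider than most others and spread over many chromosomes. The 10 highest by z score were 700.0 to 950.0 bp wide, against a median of 475 bp in all late regions. Coordinates are on mm9 and printed as deposited. First by z score was chr9:18272307-18273140, 833 bp wide, with a z score of 43.8, a highest density of 41.8 and a mean density of 16.1. Its nearest earlier Ikaros hotspot lay 480 kb away and its nearest RelA hotspot 14.3 kb away, listed at 8 h. It was followed by chr2:130556279-130557043, with a z score of 38.4 and a highest density of 47.5, which lay 100.2 kb from earlier Ikaros and 306 kb from RelA. The third, chr7:120181281-120181981, had a z score of 35.6 and lay at nearly the same distance from both, 95.4 kb from earlier Ikaros and 95.2 kb from RelA.

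The 10 late regions highest by z score scored between 32.8 and 43.8, and 3 of them lay within 10 kb of an earlier Ikaros hotspot and 1 within 10 kb of RelA, while 8 had another 8 h Ikaros hotspot within 10 kb. Over all late regions these shares were 26.8%, 20.0% and 45.2%. Of the 10, the one near both earlier Ikaros and RelA was chr11:87564269-87565029 (z 34.2), 697 bp from earlier Ikaros and 7.02 kb from RelA. The other two close to earlier Ikaros were chr8:35829254-35830040 (z 35.3) at 3.04 kb and chr17:29809987-29810826 (z 32.8) at 1.50 kb. At chr8:35829254-35830040 another 8 h Ikaros hotspot began or ended 20 bp away. The farthest of the 10 from earlier Ikaros was chr13:59659899-59660682 (z 32.8), at 1006 kb. The 10 strongest late regions thus stood both beside and far from earlier Ikaros.

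Ranking by highest density put other regions first. The densest late region was chr11:3023638-3024201, with a highest density of 133 and a z score of only 17.9. It is the hotspot nearest to the start of chromosome 11 in this list. The next were chr11:87564269-87565029 at 64.3, chr2:102478169-102478867 at 63.9, chr2:129185753-129186441 at 62.2 and chr1:133584925-133585676 at 58.5. The density of the first was 2.06 times that of the second. The widest late regions were chr5:143809870-143811280 (1410 bp, z 18.4), chr13:55104182-55105518 (1336 bp, z 21.5) and chr5:114821088-114822409 (1321 bp, z 16.3).

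Late regions were mostly not close neighbours of earlier Ikaros hotspots: 26.8% of them (25.8 to 27.9), 1838 regions, lay within 10 kb of one. The median distance was 38.6 kb, with quartiles of 8.87 and 128 kb. With every list cut to its upper 50% by z score before the rule, the median was 85.6 kb and 17.7% lay within 10 kb. That is another set, since it also takes in 8 h hotspots that overlap a weaker earlier Ikaros or RelA hotspot. The counts below use the full lists. Up to 1 kb there were 424 regions (6.19%), from 1 to 10 kb 1414 (20.6%), from 10 to 100 kb 2991 (43.7%), from 100 to 1000 kb 1865 (27.2%) and beyond that 155 (2.26%). The nearest earlier hotspot was one of 3 h for 6585 regions and one of 0 h for 264, with ties counted under 3 h. The 0 h list is much shorter, with 904 hotspots against 7161 at 3 h. Late hotspots with RelA were closer to earlier Ikaros, with a median of 27.0 kb and 33.7% (30.9 to 36.7) within 10 kb.

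The earlier Ikaros hotspots nearest to late regions were still listed at 8 h about as often as 3 h hotspots in general. For 5747 late regions, 83.9% (83.0 to 84.8), the nearest earlier hotspot overlapped an 8 h Ikaros hotspot. The nearest earlier hotspots of all late regions were 3583 distinct ones, so many count more than once and the interval is too narrow. Of all Ikaros hotspots of 3 h, 82.2% did, and of those of 0 h 92.7%. Within 1 kb the share was 83.7% (79.9 to 87.1), and from 1 to 10 kb it was 87.4% (85.6 to 89.1). In 69 of 424 cases within 1 kb the neighbour was no longer listed.

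RelA was farther away. The median distance from a late region to the nearest wild-type RelA hotspot of any time was 67.1 kb, with quartiles of 14.9 and 200.4 kb, and 20.0% (19.1 to 21.0), 1370 regions, lay within 10 kb. With every list cut to its upper 50% before the rule, which gives another set as above, these values were 142.5 kb and 12.9%. The counts that follow use the full lists. Up to 1 kb there were 331 regions (4.83%), from 1 to 10 kb 1039 (15.2%), from 10 to 100 kb 2683 (39.2%), from 100 to 1000 kb 2552 (37.3%) and beyond that 244 (3.56%). Hotspots with earlier Ikaros and no RelA had a median of 51.0 kb, with 22.7% (21.3 to 24.2) within 10 kb. The median of late regions was thus longer by 16.1 kb (9.66 to 22.5), and by 16.2 kb (-2.34 to 34.8) in the set from the cut lists. The nearest RelA hotspot was one of 3 h for 5878 late regions (85.8%), one of 8 h for 946 (13.8%) and one of 0 h for 25 (0.365%). Ties were counted under the earlier time. The counts stood in the order of the lengths of the RelA lists, 5017, 1890 and 83 hotspots. The part of list length in them was not tested. By single list, the median distance was 72.7 kb to RelA of 3 h and 263 kb to RelA of 8 h.

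**Figure D3:**
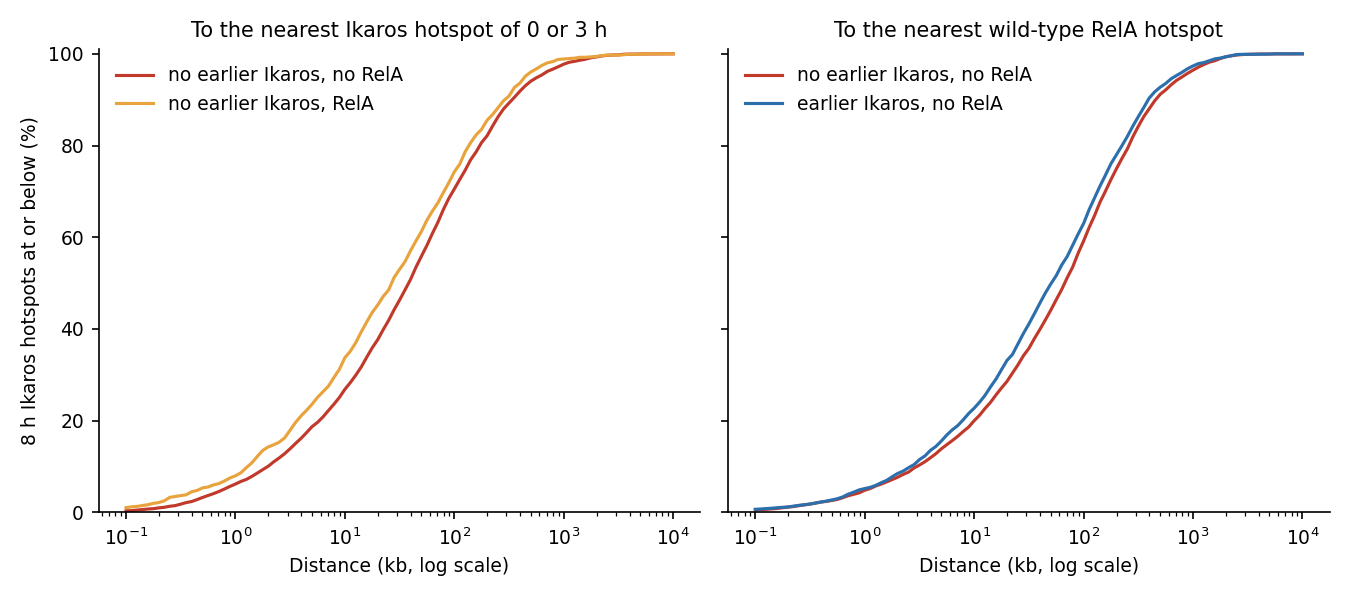
Percentage of 8 h Ikaros hotspots within each distance (log axis, kb) of the nearest Ikaros hotspot of 0 or 3 h (left) and of the nearest wild-type RelA hotspot of any time (right). Late regions without RelA have medians of 38.6 kb and 67.1 kb and lie slightly to the right of late hotspots with RelA (27.0 kb) and of hotspots with earlier Ikaros and no RelA (51.0 kb).

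The nearest RelA hotspot carried Ikaros at 8 h for 4601 late regions, 67.2% (66.1 to 68.3). Among all wild-type RelA hotspots the share was 66.3% at 3 h and 80.4% at 8 h. It was highest, 74.9% (72.1 to 77.5), for late regions 1 to 10 kb from RelA. Late regions were closer to earlier Ikaros than to RelA in 4118 cases (60.1%) and closer to RelA in 2722. The RelA lists were the shorter ones, and the part of list length in this was not tested. Both distances tended to be short or long together, with a Spearman rho of 0.52 across late regions. Within 10 kb of both were 958 regions (14.0%), within 10 kb of earlier Ikaros alone 880 (12.8%) and within 10 kb of RelA alone 412 (6.02%). The other 4599 (67.1%) lay over 10 kb from both, and 1506 (22.0%) over 100 kb from both.

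At the edge of the rule, the late region nearest to earlier Ikaros was chr11:68937481-68937904 (z 10.8), which abutted a 3 h hotspot with 0 bp between them. It is also 127 bp from RelA of 3 h. The next were chr5:22938338-22938627 (z 10.3) at 1 bp and chr15:80085070-80085641 (z 15.3) at 3 bp, which is 58 bp from RelA, and the fifth lay at 32 bp. Nearest to RelA, at 2 bp, were chr16:16358728-16358979 (z 9.86), chr5:145529237-145529584 (z 11.4) and chr9:40128429-40128821 (z 10.5), and the fifth lay at 15 bp. Just outside the rule were chr4:149434775-149435298 (z 13.9) and chr11:90096382-90096971 (z 12.9), which overlapped a RelA hotspot of 3 h by 2 and 3 bp, and chr5:102484400-102484725 (z 11.5), which overlapped an Ikaros hotspot of 3 h by 5 bp. The fourth and the fifth overlapped Ikaros of 3 h by 7 and 15 bp.

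At the other extreme stood isolated regions. The late region farthest from earlier Ikaros was chr14:87590518-87590831 (z 11.2), at 7709 kb, and it lay 8400 kb from RelA and 7657 kb from any other 8 h Ikaros hotspot. Next came chr4:80358505-80358909 (z 11.7) at 5862 kb. A pair on chromosome 16, chr16:70330910-70331324 (z 12.9) and chr16:70314689-70314940 (z 10.3), lay 4879 and 4863 kb from earlier Ikaros. The second of them lay 185 bp from a RelA hotspot of 3 h, and the first 16.4 kb from it. The fifth, chr4:28351447-28351963, lay at 3928 kb and had the highest z score of the 5, 15.7.

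The z score of late regions hardly differed between bands of distance, whereas their density was lower far from earlier Ikaros and from RelA. Median z scores across the 5 bands of distance to earlier Ikaros ran only from 12.2 to 12.5, and across bands of distance to RelA from 12.0 to 12.5. The median highest density was 21.0 up to 1 kb from earlier Ikaros, 21.6 from 1 to 10 kb, 20.7 from 10 to 100 kb, 17.4 from 100 to 1000 kb and 16.0 beyond. By distance to RelA it was 20.4, 21.8, 20.9, 18.2 and 16.6 in the same bands. Across late regions the Spearman rho with distance to earlier Ikaros was -0.27 for density and -0.018 for the z score, and with distance to RelA it was -0.24 for density and -0.0012 for the z score. Hotspots with earlier Ikaros and no RelA had a rho between density and distance to RelA of -0.12. How the authors' z score treats local background is not given in the sources used here, and its part in this was not tested.

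**Figure D4:**
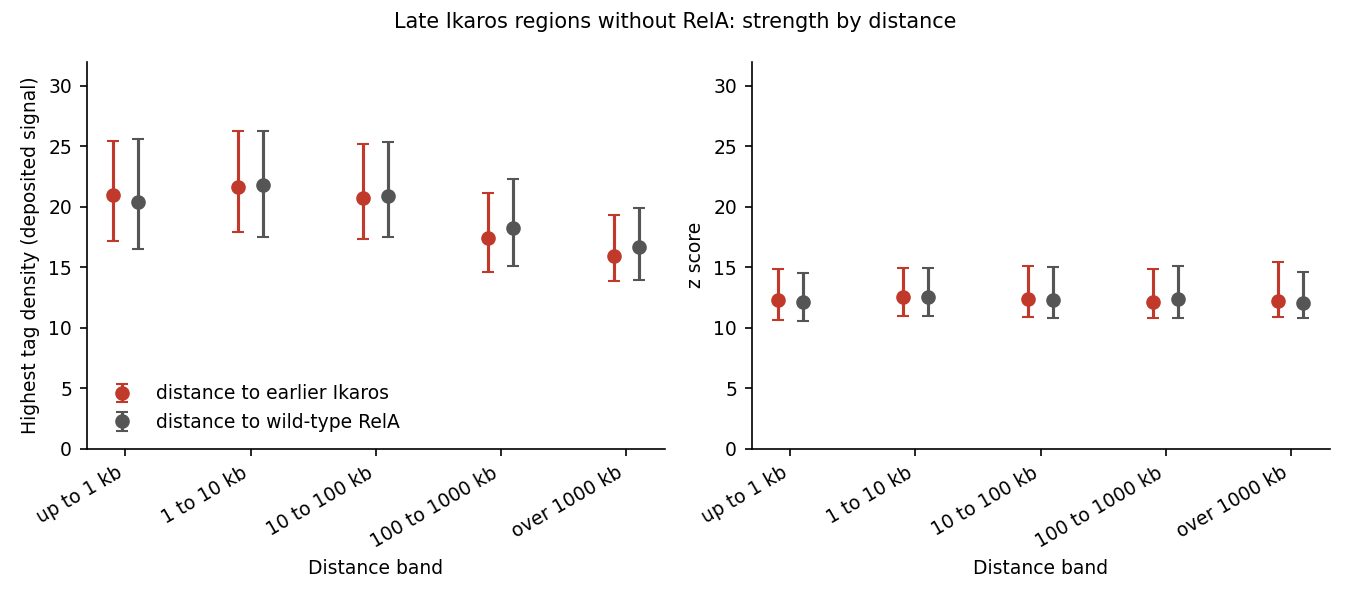
Median (point) and quartiles (bars) of the highest tag density (left) and the z score (right) of the 6849 late regions in 5 bands of distance to the nearest earlier Ikaros hotspot and to the nearest wild-type RelA hotspot. Median density is 21.0 within 1 kb of earlier Ikaros and 16.0 beyond 1000 kb, whereas median z scores stay between 12.0 and 12.5.

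Split by quintiles of density over the whole 8 h list, the late regions of lowest density lay a median of 86.1 kb from earlier Ikaros and 122 kb from RelA, and those of highest density 20.3 and 36.4 kb. Split by quintiles of z score, the weakest lay 40.6 kb from earlier Ikaros and 68.0 kb from RelA, and the strongest 39.6 and 73.9 kb. Mean tag density went with distance as highest density did, with a rho of -0.31 for earlier Ikaros and -0.29 for RelA, and width hardly at all, with -0.051 and -0.032.

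Late regions had another 8 h Ikaros hotspot close by slightly less often than the list as a whole. The nearest other 8 h Ikaros hotspot lay a median of 12.8 kb away, and 3094 late regions (45.2%) had one within 10 kb, against 49.3% over all 13796 hotspots. For 3598 late regions (52.5%) this nearest neighbour was itself a late region, and late regions made up 49.6% of the list. Hotspots with earlier Ikaros and no RelA had another within 10 kb in 47.5% of cases, late hotspots with RelA in 53.4%, and hotspots with both in 61.9%. Hotspots that carried RelA were thus the more crowded classes, and late regions the least.

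Some stretches held several late regions. Of the 6849 windows of 100 kb that began at a late region, 1369 held 3 or more and 151 held 5 or more. Such windows overlap, so the same stretch can count several times. No such count was made for the other classes, so these numbers do not show that late regions cluster. The fullest began at 133576150 on chromosome 1 and held 8 late regions among 9 Ikaros hotspots of 8 h, with z scores from 10.3 to 32.4. This window had 1 Ikaros hotspot at 3 h, none at 0 h and no wild-type RelA hotspot at any time. It includes chr1:133584925-133585676, one of the 5 densest late regions. A window from 132646837 on chromosome 7 held 8 late regions among 10 Ikaros hotspots, with z scores from 9.82 to 17.1, 2 Ikaros hotspots at 3 h and no RelA. A window from 184424659 on chromosome 1 held 7 among 8, with z scores from 10.2 to 13.2, 1 Ikaros hotspot at 3 h and no RelA. None of the late regions in these 3 windows met a littermate RelA hotspot.

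The part of the 8 h list made up by late regions ran from 44.7% to 56.6% over the chromosomes. The chromosomes named here are the extremes, picked after the values were seen. Their intervals are therefore no test of a difference between chromosomes. The share was lowest on chromosomes 11 (44.7%, 41.7 to 47.8) and 10 (45.1%, 41.5 to 48.6) and highest on the X chromosome (56.6%, 50.5 to 62.6, 154 of 272 hotspots), against 49.6% over all. The median z score of late regions lay between 12.1 on chromosome 13 and 12.8 on chromosome 16. The median distance to earlier Ikaros was 21.3 kb on chromosome 11 and 77.0 kb on the X chromosome, which held 617 and 151 Ikaros hotspots at 3 h.

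The RelA lists of littermate control cells were not used by the rule. They cannot decide whether RelA was absent from late regions. As the shares below show, they also missed most 8 h Ikaros hotspots that carried wild-type RelA. The 3 h littermate list had a median highest density of 4.11 and its wild-type counterpart one of 18.5. For the 8 h pair of lists the medians were 4.56 and 25.5, on an unstated scale. Late regions rarely met a littermate RelA hotspot. Of the 6849, 106 overlapped a littermate RelA hotspot of any time, 1.55% (1.27 to 1.87), where 12.9% of all 13796 hotspots did. Most of that 12.9% came from hotspots with wild-type RelA. Among the 10324 hotspots without it, late or not, 2.03% met a littermate RelA hotspot. Hotspots with earlier Ikaros and no RelA did so in 104 of 3475 cases, 2.99% (2.45 to 3.61), late hotspots with wild-type RelA in 39.4% (36.4 to 42.4), and hotspots with both in 47.7% (45.7 to 49.7). Late regions minus hotspots with earlier Ikaros and no RelA gave a difference of -1.45 percentage points (-2.08 to -0.81). With every list cut to its upper 50% before the rule, which gives another set, the difference was -0.69 points (-1.46 to 0.071).

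The share on littermate RelA tended to be higher in stronger quintiles of z score, which also held wider regions. Late regions had a median width of 302 bp in the weakest quintile and 708.5 bp in the strongest. A wider region has more room for an overlap of 1 bp. Within quintiles of z score, from weakest to strongest, 0.842%, 1.20%, 2.11%, 2.13% and 4.44% of late regions met littermate RelA. For hotspots with earlier Ikaros and no RelA the shares were 1.10%, 1.50%, 2.72%, 3.64% and 3.57%. The intervals of both classes overlapped in each of the 5 quintiles. In the strongest the late regions had the higher share (2.23 to 7.80, against 2.61 to 4.77), from 11 of 248 regions. In quintiles of highest density late regions had the lower share in all 5, with 1.30%, 0.940%, 1.71%, 2.45% and 2.64%. Hotspots with earlier Ikaros and no RelA had 1.95%, 2.14%, 2.56%, 2.83% and 3.98% there, and these intervals overlapped too. How much of the lower share over all late regions goes with their lower strength or smaller width was not tested.

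**Figure D5:**
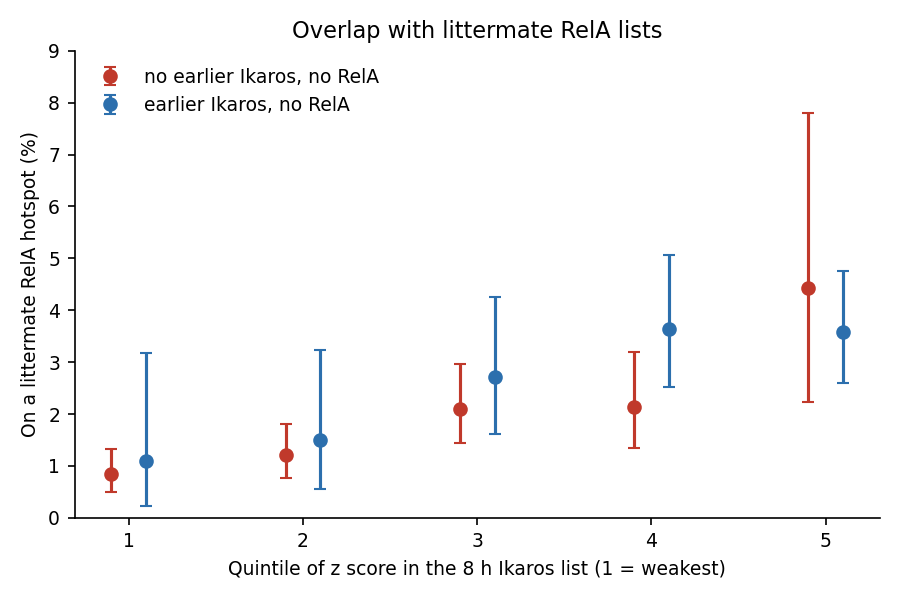
Share of 8 h Ikaros hotspots without wild-type RelA that overlap a littermate RelA hotspot of any time, by quintile of z score, for late regions and for hotspots with earlier Ikaros; bars are 95% exact intervals. Late regions run from 0.842% in the weakest quintile to 4.44% in the strongest, and the intervals of both classes overlap in every quintile.

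By time, 7 late regions met littermate RelA at 0 h (0.102%, 0.0411 to 0.210), 90 at 3 h (1.31%, 1.06 to 1.61) and 23 at 8 h (0.336%, 0.213 to 0.503). Over all 13796 hotspots these shares were 1.25%, 12.1% and 5.93%. The lists held 5859, 10130 and 5288 hotspots. Of the 106 late regions, 93 met RelA at 1 time, 12 at 2 and 1 at all 3. By density, though not by z score, the littermate hotspots they met stood above their lists. At 3 h their median highest density was 13.7, against 4.11 over the whole list, and 75 of 90 reached a density of 10. At 8 h the median was 18.8 against 4.56, with 21 of 23 at 10 or more, and at 0 h it was 23.2 against 4.56, with 7 of 7. Their median z score was 11.0 against 14.5 over the whole list at 3 h, 12.4 against 12.8 at 8 h and 12.9 against 13.1 at 0 h.

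The late regions on littermate RelA were somewhat stronger and lay nearer to wild-type RelA. Their median z score was 14.2, against 12.3 in late regions on none. Their median distance to wild-type RelA was 34.9 kb against 67.9 kb, and to earlier Ikaros 29.6 kb against 39.0 kb. Of late regions within 10 kb of wild-type RelA and not of earlier Ikaros, 12 of 412 met littermate RelA, 2.91% (1.51 to 5.03), and of those near earlier Ikaros and not RelA, 4 of 880, 0.455% (0.124 to 1.16). Of the 958 within 10 kb of both, 21 did, 2.19% (1.36 to 3.33), and of the 1506 over 100 kb from both, 19 did, 1.26% (0.761 to 1.96). The share did not rise steadily towards wild-type RelA. It was 2.79% (1.88 to 3.98) from 1 to 10 kb and 1.21% (0.330 to 3.07), 4 of 331, up to 1 kb.

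The strongest of the 106 was chr9:18272307-18273140, also the strongest late region of all, which met a littermate RelA hotspot of 3 h with a highest density of 8.16. It was followed by chr12:75293393-75294201 (Ikaros z 29.7), with a littermate density of 8.70 at 3 h, and chr9:13391342-13392189 (Ikaros z 29.3), with 14.7 at 3 h. The fourth, chr3:105606322-105607073 (Ikaros z 29.0), met littermate RelA at 0 h with a density of 29.3 and at 3 h with a density of 14.0. The fifth was chr12:17513704-17514519 (Ikaros z 26.8), with 10.8 at 3 h. None of these 5 was in the littermate list of 8 h, the time at which Ikaros was listed. Of all 106, 23 were, against 17 of the 104 hotspots with earlier Ikaros and no RelA that met littermate RelA.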

How the data were processed

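Hotspots were called in single libraries on mm9, and CASAVA is named, per the submitters' processing notes; the sources used here do not give the aligner, caller, threshold or use of input. Per the file headers, the authors deposited for each hotspot the highest and mean tag density (a signal of unstated scale), a z score and its p-value; the p-value was not used. Of 12 samples, 10 had a file used here. The number of reads is unknown, so precision is given only as exact Clopper-Pearson 95% intervals, and for medians as binomial intervals of the order statistics, used to judge alternatives. Intervals of differences combine the half-widths for medians and use a normal approximation for shares.

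Coordinates were read as half-open. Overlap meant 1 bp or more, and distance the bases between region ends. Distances to chosen lists describe the choice. Overlap code was tested on simulated lists, and the member count equalled that of bedtools 2.31.1. Python 3.11.15, numpy 2.4.6, pandas 2.3.3, scipy 1.17.1 and matplotlib 3.10.9 were used. The members, classes and lists were chosen with earlier results of these data known. Named regions were the 10 highest by z score, the 5 densest, the 5 farthest from earlier Ikaros, the 5 nearest to it or to RelA with 5 just outside, the 3 widest, the 3 fullest windows of 100 kb and the 5 strongest on littermate RelA; parts of some sets are given as counts or ranges. The gene table at hand is of GRCm38.p6, so no gene or sequence was assigned.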

Additional observations from a re-analysis of the deposited data

How the results depend on the processing

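These values carry no test. A share or median is taken as moved once outside its 95% interval, and a number once over 1.5 times larger or smaller. For 11 results, 85 of 108 alternatives stayed inside, 23 moved, and no difference between classes turned direction, though 2 had intervals that reach past 0 with the upper 50% of each list; the 4 differences, and leaving out a 0 h list, were added after the data were seen. Closed coordinates, a highest density of 10 or more, no removal of input, exclusion on littermate RelA (which leaves no littermate share to count) and the rule without the 0 h Ikaros or RelA list moved none. Under a reciprocal overlap of at least 50%, the median z score was 12.6, the median distances 29.5 kb to earlier Ikaros and 57.4 kb to RelA, the shares within 10 kb 33.4% and 24.2%, and the z difference from hotspots with earlier Ikaros and no RelA -6.54. With hotspots within 500 bp counted as overlapping, the distances were 41.8 and 71.8 kb and the shares 24.2% and 17.5%. With every list cut to its upper 50% by z score before the rule, 3485 regions met it. They include 8 h hotspots that overlap a weaker earlier Ikaros or RelA hotspot. Only 1997 late regions of the full lists lay above the median z score of the 8 h list after removal of input hotspots. The 3485 had a median z score of 17.6, distances of 85.6 and 142.5 kb and shares of 17.7% and 12.9%. Their differences were -7.05 in z score, -0.69 points on littermate RelA (-1.46 to 0.071) and 16.2 kb in distance to RelA (-2.34 to 34.8). The difference in distance to earlier Ikaros from late hotspots with RelA was 34.1 kb. With the 8 h list held to its 7109 strongest hotspots, the length of the 3 h list, late regions numbered 2113, 29.7% of the list, with a median z score of 16.7, a z difference of -4.68 and 2.51% on littermate RelA. Thinner lists lengthen distances by construction. No paired analysis was possible because every group holds a single library, which also leaves no replicate to omit. Depth is unknown, so the weakest enrichment each list could show is too.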
